A study of Mus musculus with 6 samples.

Results

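This account describes 56 genes that encode Polycomb, trithorax and other chromatin-modifying proteins, chosen by symbol from the 52183 rows of the deposited table. Each of the 56 symbols matched 1 row. They were grouped by role into PRC2 (5 genes), PRC1 (14), MLL-type methyltransferase complexes (8), other histone methyltransferases (5), demethylases (6), deacetylases (8), DNA methylation (5) and remodelling with an architectural protein (5). RNA sequencing was done on haematopoietic stem cells, which had been sorted by flow cytometry from bone marrow. The mice were female and 4 months old. Of the 6 libraries, 3 are labelled Thbs1 knockout and 3 control. Thbs1 encodes thrombospondin 1, a secreted matrix glycoprotein. The labels give neither the strain, nor the deleted part of the gene, nor whether libraries came from separate animals, so the p-values rest on differences among libraries that may be purely technical.

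Polycomb proteins keep developmental genes silent. PRC2 methylates lysine 27 of histone H3, and PRC1 ubiquitinates histone H2A and compacts nucleosomes. MLL-type complexes of the trithorax group methylate lysine 4 of histone H3 and mark active promoters and enhancers. Demethylases, deacetylases, DNA methyltransferases and ATP-driven remodellers add to or undo these states. In blood-forming stem cells Bmi1, a PRC1 subunit, and Kmt2a (MLL1) are known to be needed for self-renewal.

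Levels are given in FPKM, a fragment count divided by exon length and by library depth, so that levels of different genes can be set side by side. Depth, read from the steps between FPKM values of short genes, lay between 22730000 and 30890000 reads per library, which puts 252 to 11430 reads behind each value of the 56 genes. Thbs1 itself stood at 10.8, 8.50 and 7.68 FPKM in knockout-labelled libraries 1 to 3, against 4.12, 13.8 and 2.33 FPKM in control libraries 1 to 3, and was thus not lower in the libraries labelled knockout (limma adjusted p = 0.503). A two-sided exact permutation test gave p = 0.5, with 0.1 the smallest value that 3 libraries against 3 allow. Every direction below follows the labels alone. All 11 stem cell markers reached 1 FPKM, and 1 of them was called lower and 0 higher. The marker called lower was Ly6a, which averaged 76.9 ± 11.1 FPKM in knockout-labelled and 115 ± 6.78 FPKM in control libraries (limma adjusted p = 0.0286). Its call was kept under TPM. Procr went the other way, at 59.3 ± 7.04 FPKM in knockout-labelled and 45.4 ± 1.93 FPKM in control libraries, and was called higher under TPM alone. Of the 11 changes in FPKM, 6 were above 0 and 5 below. The neutrophil gene Ly6g and the NK cell gene Ncr1 were listed at 0 in all 6 libraries. Neutrophil and monocyte markers summed to 386 to 432 FPKM in knockout-labelled and 415 to 481 FPKM in control libraries (0 of 4 tested called). Most of that sum was Lyz2, which averaged 345 ± 18.1 FPKM in knockout-labelled and 367 ± 20.7 FPKM in control libraries (SD, n = 3 each). Prtn3 averaged 63.6 ± 5.01 FPKM in knockout-labelled and 83.0 ± 13.9 FPKM in control libraries. Summed markers of multipotent progenitors came to between 108 and 119 FPKM in knockout-labelled libraries and between 134 and 140 FPKM in control libraries (1 of 5 tested markers lower, 0 higher). For megakaryocytes the sums were 266 to 373 FPKM in knockout-labelled and 385 to 487 FPKM in control libraries (0 of 6 called). Most of that sum was Pf4, which averaged 189 ± 48.4 FPKM in knockout-labelled and 315 ± 42.3 FPKM in control libraries. Its groups did not overlap (limma adjusted p = 0.0594), while those of every other megakaryocyte marker did. For T and NK cells they were 52.4 to 63.8 FPKM in knockout-labelled and 74.9 to 101 FPKM in control libraries (1 of 2 tested markers lower). That sum was nearly all Nkg7, which averaged 54.6 ± 5.85 FPKM in knockout-labelled and 88.6 ± 14.6 FPKM in control libraries (SD, n = 3 each), while the other tested marker, Klrb1c, averaged 2.73 ± 0.466 FPKM in knockout-labelled and 2.35 ± 0.0781 FPKM in control libraries. The T cell genes Cd3e, Cd3g and Cd8a were below 0.1 FPKM in every library. B cell markers summed to between 24.3 and 27.8 FPKM in knockout-labelled libraries and between 28.9 and 31.1 FPKM in control libraries (0 of 2 tested markers called). Erythroid markers summed to 66.2 to 133 FPKM in knockout-labelled and 99.1 to 120 FPKM in control libraries (1 of 7 tested lower). The marker called lower was the globin gene Hbb-bt, at 3.54, 4.43 and 4.20 FPKM in libraries labelled knockout and 11.9, 12.4 and 19.98 FPKM in libraries labelled control. Its log2 change was -1.61 (SE 0.18, limma adjusted p = 0.00247), and it was called lower under TPM too, at -1.55. Hbb-bt shares most of its sequence with Hbb-bs, so the split of reads between these globin genes is uncertain. Fewer cells of a type and less RNA per cell cannot be told apart in such data, and the part of these cells in the values below was not tested.

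None of the 56 genes passed the test between libraries labelled knockout and control. Mean levels over all 6 libraries ran from 80.3 FPKM for the deacetylase gene Hdac1 to 1.07 FPKM for the remodeller gene Chd7. The lowest adjusted p belonged to Arid1a, a subunit of the BAF remodelling complex, which averaged 13.2 ± 0.326 FPKM in knockout-labelled and 17.1 ± 1.22 FPKM in control libraries. On the other side Men1, encoding the MLL-complex partner menin, averaged 46.6 ± 4.87 FPKM in knockout-labelled and 36.4 ± 5.15 FPKM in control libraries. Changes were measured as differences of log2(FPKM + 1), knockout minus control, and ranged from -0.36 for Kdm6b to 0.35 for Men1 among the 56 genes.

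By limma with Benjamini-Hochberg adjustment over 12555 tested genes, 0 of the 56 were higher and 0 lower at an adjusted p below 0.05, where 0.566% of all tested genes were higher and 0.996% lower. All 56 genes had passed the filter of at least 1 FPKM in at least 3 libraries. An unadjusted p below 0.05 was reached by 4 genes on the higher side and 5 on the lower side, or 7.14% and 8.93% of the 56, beside 8.92% and 7.46% of all tested genes. The groups did not overlap in 6 genes on the higher side, 10.7% of the 56, against 12.6% of all tested genes. On the lower side they did not overlap in 11 genes, 19.6% of the 56, against 10.1% of all tested genes. The median change was -0.03 over the 56 genes and 0.01 over all tested genes. Above 0 were 24 of the 56 changes, and 57.1% were below 0, beside 46.6% of all tested genes.

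The precision of these values bounds what could have been seen. The 95% interval of the change lay wholly between -0.5 and 0.5 for 48 of the 56 genes, and the widest bounds were -0.71 for Kdm6b and 0.61 for Men1. These bounds hold for log2(FPKM + 1), a scale that understates changes of low genes. Kdm6b, with a knockout-labelled mean 0.704 times its control mean, had a change of -0.36 on it. With each library rescaled to sum to 1000000 (TPM), 15277 genes passed the filter, and their median change was 0.19, beside 0.01 in FPKM. The TPM change of any single gene given below therefore stands beside 0.19, not 0. Under that scaling 6 of the 56 genes, or 10.7%, were called higher and 0 lower, where 13.2% of the 15277 genes were called higher and 0.838% lower. These 6 were Eed, Men1, Ezh1, Ehmt2, Wdr5 and Hdac2. The median of the 56 genes was -0.05 relative to all tested genes in FPKM and -0.03 relative to them in TPM.

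**Figure D1:**
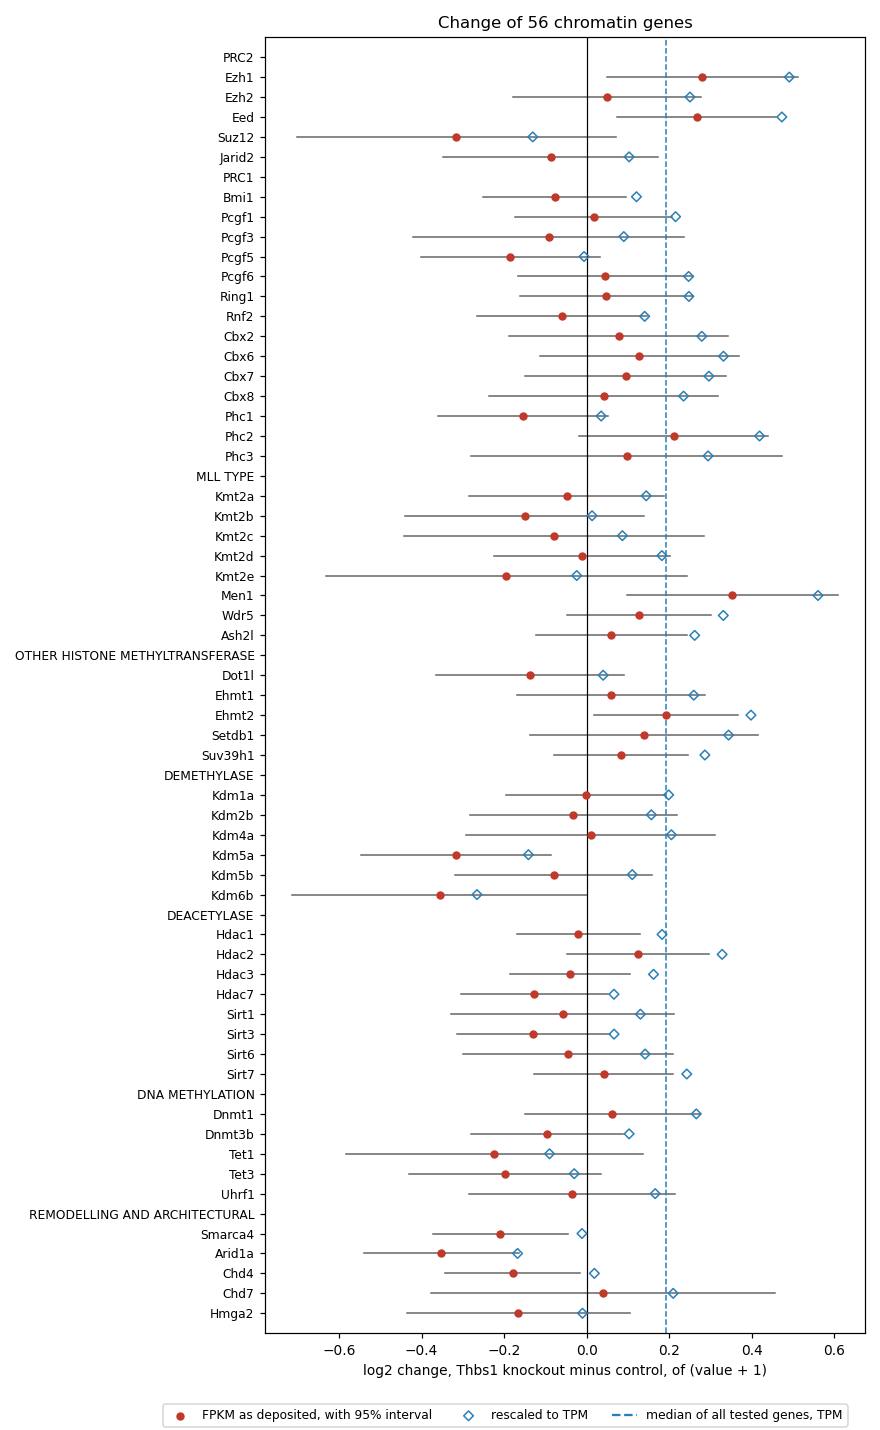
Log2 change of each of the 56 genes, knockout-labelled minus control, from FPKM as deposited (red points with 95% intervals) and after rescaling to TPM (open blue diamonds), with the TPM median of all tested genes dashed at 0.19. Diamonds lie to the right of the points, and 48 of the 56 intervals lie wholly between -0.5 and 0.5.

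**Figure D2:**
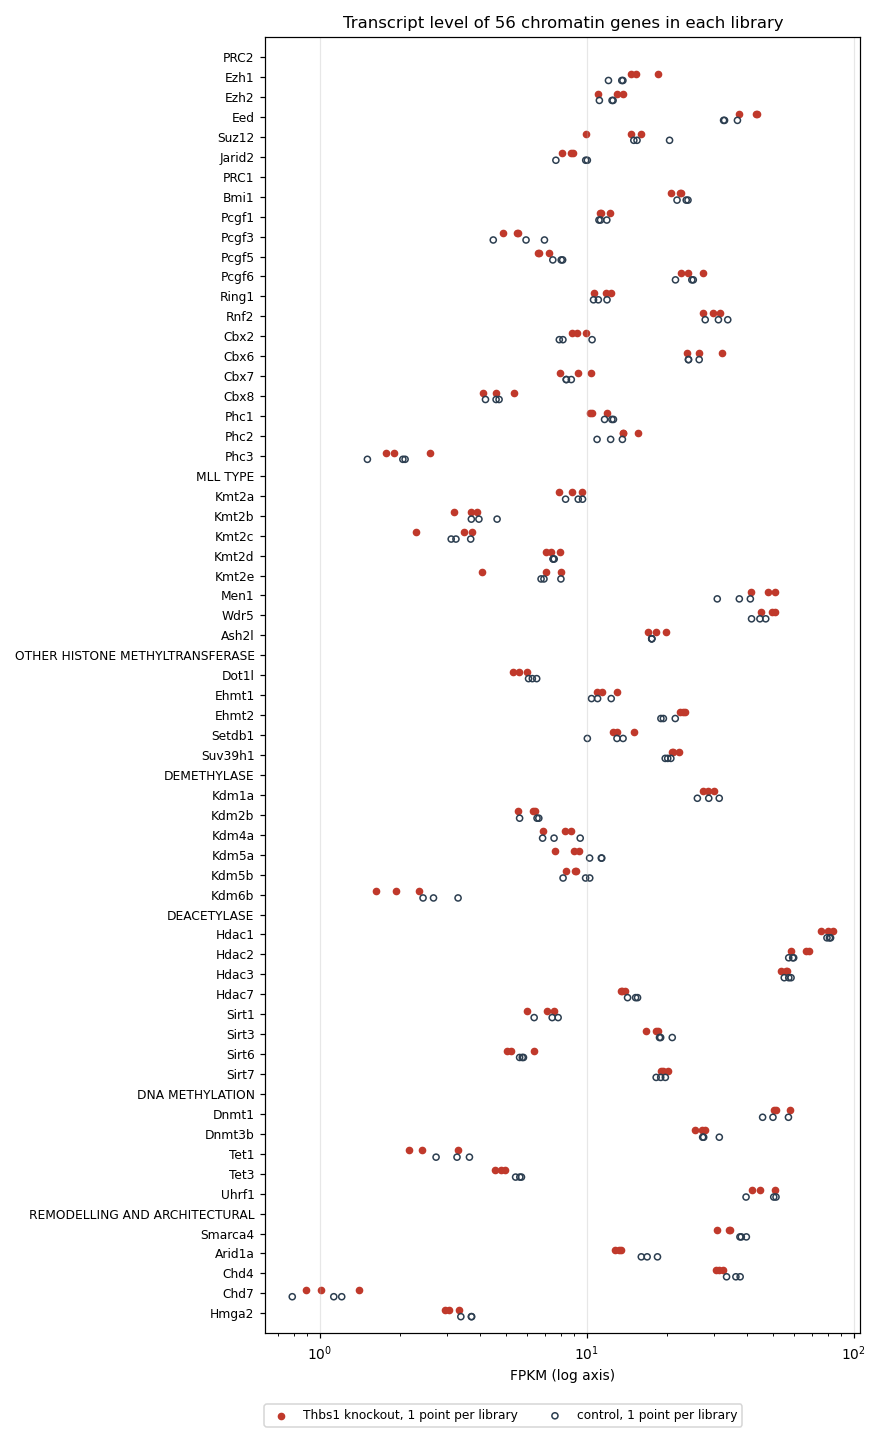
FPKM of the 56 genes on a log axis, grouped by role, with 1 point per library (filled red, knockout-labelled; open dark, control). The points of both groups lie close together in most rows, with Hdac1 near 80.3 FPKM on average at the top of the range and Chd7 near 1.07 FPKM at the bottom.

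PRC2 genes split in direction. Its H3K27 methyltransferase has alternative catalytic subunits, Ezh2 of dividing cells and Ezh1 of quiescent cells, with Eed, which binds methylated lysine 27, and Suz12 as core partners and Jarid2 as a recruiting subunit. Eed was the most abundant of the 5, at 37.1, 43.4 and 43.05 FPKM in knockout-labelled libraries 1 to 3, against 32.6, 32.8 and 36.7 FPKM in control libraries 1 to 3. All knockout-labelled libraries lay above all control libraries (log2 change 0.27 ± 0.09 SE, 95% interval 0.07 to 0.46, limma adjusted p = 0.167). An antisense transcript covers 6.82% of its exon bases, and reads of the pair cannot be told apart because the library kit does not mark strand. Ezh1 stood at 18.5, 14.7 and 15.3 FPKM in the knockout-labelled libraries, against 13.5, 13.7 and 12.1 FPKM in the controls. The groups again did not overlap, but knockout-labelled library 1 carried the highest value (log2 change 0.28 ± 0.10 SE, 95% interval 0.05 to 0.51, limma adjusted p = 0.216), and without that library the change was 0.19. Suz12 ran the other way on average, at 9.95, 14.7 and 16.04 FPKM in libraries labelled knockout and 20.4, 15.4 and 15.02 FPKM in libraries labelled control. Its groups overlapped (log2 change -0.32 ± 0.17 SE, 95% interval -0.70 to 0.07, limma adjusted p = 0.404), and without knockout-labelled library 1, its lowest library, the change was -0.12. The change was -0.18 without control library 1 and -0.13 under TPM. Ezh2 averaged 12.5 ± 1.36 FPKM in knockout-labelled and 12.1 ± 0.778 FPKM in control libraries and Jarid2 8.57 ± 0.438 FPKM in knockout-labelled and 9.22 ± 1.34 FPKM in control libraries.

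Ezh1 and Ezh2 had similar levels per length. The ratio of Ezh2 to Ezh1 FPKM was 0.598, 0.882 and 0.890 in knockout-labelled libraries 1 to 3 and 0.928, 0.816 and 1.03 in control libraries 1 to 3. The ratio does not depend on how libraries are scaled. Its groups overlapped, and the difference of the log2 ratio, -0.25, did not pass a two-sided exact permutation test (p = 0.4, smallest possible 0.1). Without knockout-labelled library 1 that difference was -0.06.

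PRC1 genes had changes between -0.19 and 0.21, a narrower range than that of PRC2 (-0.32 to 0.28). In PRC1 a RING E3 ligase, Ring1 or Rnf2 (RING1B), pairs with 1 PCGF subunit; PCGF subunits set the variant, while CBX and PHC proteins belong to the canonical form that reads methylated lysine 27. Rnf2 was the highest of the 14, at 27.3, 29.8 and 31.6 FPKM in knockout-labelled libraries 1 to 3, against 31.1, 33.8 and 27.8 FPKM in control libraries 1 to 3. These ranges overlapped (log2 change -0.06 ± 0.09 SE, 95% interval -0.26 to 0.15, limma adjusted p = 0.805). Ring1 lay below Rnf2 in every library, between 10.6 and 12.4 FPKM over all 6, and gave between 23.9% and 30.2% of the summed FPKM of the pair. Bmi1 (Pcgf4) stood at 20.7, 22.5 and 22.4 FPKM in the knockout-labelled libraries, against 23.96, 23.6 and 21.8 FPKM in the controls. Its groups overlapped as well, and the 95% interval of its change ran from -0.25 to 0.10. With each library left out in turn the change lay between -0.12 and -0.04, and under TPM it was 0.12. Set against the median of all tested genes, it was -0.09 in FPKM and -0.07 in TPM.

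Among the PCGF subunits Pcgf6 and Bmi1 were the most abundant, with Pcgf6 from 21.5 to 27.2 FPKM and Bmi1 from 20.7 to 23.96 FPKM over the 6 libraries. Pcgf6 lay above Bmi1 in every library except control library 1, so their order was not the same throughout. Pcgf1 averaged 11.6 ± 0.548 FPKM in knockout-labelled and 11.4 ± 0.414 FPKM in control libraries, and Pcgf3 5.30 ± 0.378 FPKM in knockout-labelled and 5.78 ± 1.25 FPKM in control libraries. Pcgf5 stood at 6.57, 6.61 and 7.25 FPKM in libraries labelled knockout and 8.03, 7.47 and 8.13 FPKM in libraries labelled control. All knockout-labelled values lay below all control values in FPKM (log2 change -0.19 ± 0.10 SE, 95% interval -0.40 to 0.03, limma adjusted p = 0.380), while under TPM the change was -0.0064. Among CBX subunits Cbx6 led with 23.8 to 32.1 FPKM over all libraries, while Cbx7, known as the main CBX subunit of mouse haematopoietic stem cells, averaged 9.20 ± 1.22 FPKM in knockout-labelled and 8.51 ± 0.214 FPKM in control libraries. Cbx2 averaged 9.33 ± 0.584 FPKM in knockout-labelled and 8.84 ± 1.42 FPKM in control libraries and Cbx8 4.66 ± 0.625 FPKM in knockout-labelled and 4.49 ± 0.272 FPKM in control libraries, each with overlapping groups.

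The polyhomeotic subunits, which link PRC1 complexes through their SAM domains, had changes of opposite sign for Phc2 and Phc1 in FPKM, while under TPM that of Phc1 was also positive (0.035). Relative to the median of all tested genes, Phc1 stood at -0.17 in FPKM and -0.16 in TPM, and Phc2 at 0.20 and 0.23. Phc2 stood at 15.6, 13.7 and 13.7 FPKM in knockout-labelled libraries 1 to 3, against 13.6, 12.3 and 10.9 FPKM in control libraries 1 to 3. It was higher in every knockout-labelled library (log2 change 0.21 ± 0.10 SE, 95% interval -0.02 to 0.44, limma adjusted p = 0.347), and its change was 0.42 under TPM and 0.14 without control library 3. Phc1 stood at 11.9, 10.5 and 10.3 FPKM in the knockout-labelled libraries, against 12.6, 11.7 and 12.4 FPKM in the controls, with groups that overlapped (log2 change -0.15 ± 0.09 SE, 95% interval -0.36 to 0.05, limma adjusted p = 0.444). As a share of the summed FPKM of Phc1, Phc2 and Phc3, Phc2 gave 53.2%, 52.4% and 51.6% in knockout-labelled libraries and 48.2%, 47.2% and 44.0% in control libraries. Phc1 gave 40.7%, 40.3% and 38.6% in knockout-labelled libraries against 44.6%, 44.8% and 49.96% in control libraries. Phc3 itself averaged 2.09 ± 0.437 FPKM in knockout-labelled and 1.88 ± 0.324 FPKM in control libraries. Neither of the first shares overlapped between the groups, and such shares do not depend on the scaling. Among 38 shares in 10 families of paralogues, 6 did not overlap, and none of them was tested. They came from 4 families, and shares within a family depend on each other. Levels did not overlap in 12.6% of all tested genes on the higher side and 10.1% on the lower side.

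**Figure D3:**
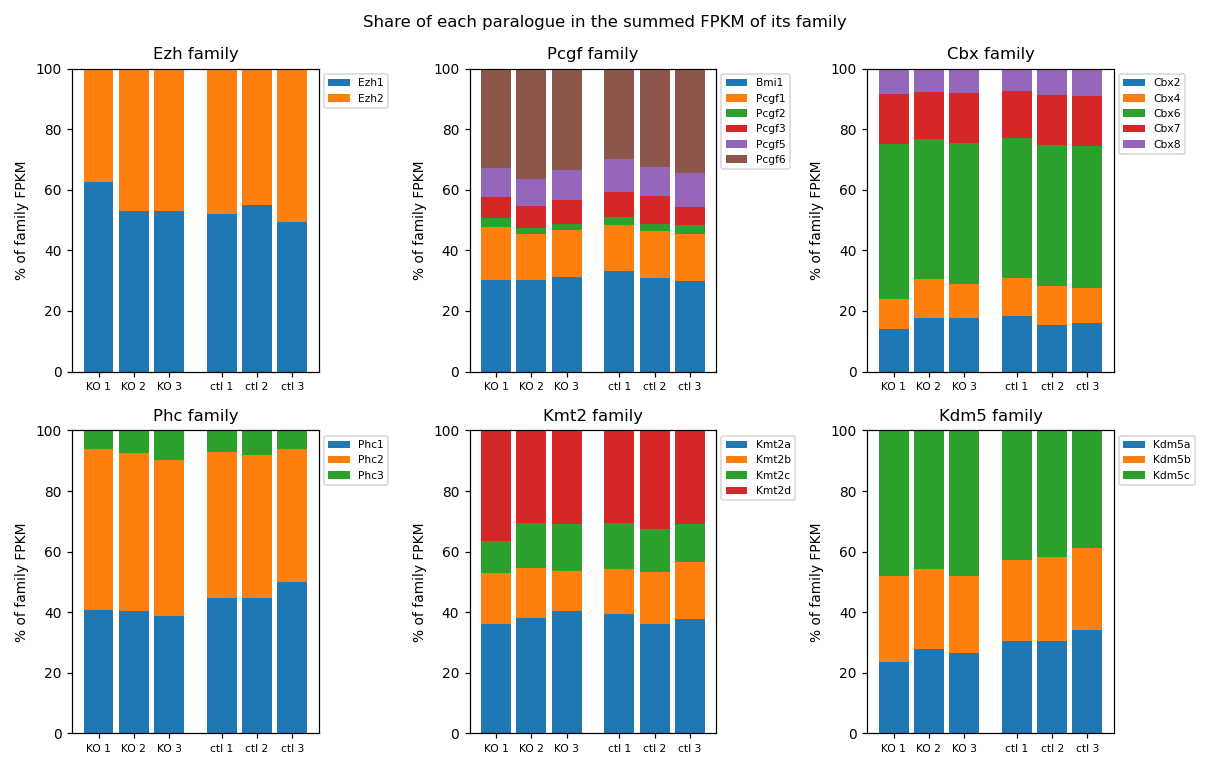
Share of each paralogue in the summed FPKM of its family, in percent, as stacked bars with 1 bar per library (knockout-labelled libraries left, control libraries right). Every share in the Ezh, Pcgf, Cbx and Kmt2 families overlaps between the groups, while Phc2 lies between 51.6% and 53.2% in knockout-labelled libraries and between 44.0% and 48.2% in control libraries.

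MLL-type genes were led by their shared subunits rather than by their enzymes. Wdr5, a propeller protein that holds the catalytic core together, had the highest level of the 8, at 50.8, 44.98 and 49.5 FPKM in libraries labelled knockout and 46.8, 44.5 and 41.5 FPKM in libraries labelled control. The groups overlapped (log2 change 0.13 ± 0.08 SE, 95% interval -0.05 to 0.30, limma adjusted p = 0.459). Men1 stood at 50.8, 41.3 and 47.8 FPKM in knockout-labelled libraries 1 to 3, against 41.02, 37.3 and 30.8 FPKM in control libraries 1 to 3. Every knockout-labelled library was above every control library, by a narrow margin between knockout-labelled library 2 and control library 1 (log2 change 0.35 ± 0.11 SE, 95% interval 0.10 to 0.61, limma adjusted p = 0.167). Ash2l, another subunit of the shared core, stood at 17.01, 19.8 and 18.2 FPKM in the knockout-labelled libraries and at 17.5 FPKM in each control library. The methyltransferases themselves were lower per length. Kmt2a (MLL1) averaged 8.78 ± 0.880 FPKM in knockout-labelled and 9.10 ± 0.678 FPKM in control libraries, and Kmt2b 3.58 ± 0.362 FPKM in knockout-labelled and 4.09 ± 0.476 FPKM in control libraries. The enhancer methyltransferase genes Kmt2d and Kmt2c averaged 7.46 ± 0.469 FPKM in knockout-labelled and 7.52 ± 0.0379 FPKM in control libraries for Kmt2d and 3.16 ± 0.762 FPKM in knockout-labelled and 3.34 ± 0.299 FPKM in control libraries for Kmt2c. The groups overlapped for all 4 enzymes. Kmt2e, a divergent member that lacks strong methyltransferase activity, had its lowest value of the 6 libraries, 4.07 FPKM, in knockout-labelled library 1, and without that library its change was 0.06 in place of -0.19. A gene on the other strand covers 9.31% of its exon bases.

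The other histone methyltransferases had 4 of 5 changes above 0 in FPKM and a group median of 0.07 relative to all tested genes (0.09 relative to them in TPM). Ehmt2 (G9a), which methylates lysine 9 of histone H3, stood at 23.3, 22.4 and 22.99 FPKM in the knockout-labelled libraries, against 19.4, 21.5 and 18.97 FPKM in the controls. It was the highest of the 5 and did not overlap between the groups (log2 change 0.19 ± 0.08 SE, 95% interval 0.02 to 0.37, limma adjusted p = 0.260). Its partner Ehmt1 averaged 11.8 ± 1.10 FPKM in knockout-labelled and 11.3 ± 0.993 FPKM in control libraries. Suv39h1 of constitutive heterochromatin averaged 21.4 ± 0.677 FPKM in knockout-labelled and 20.2 ± 0.491 FPKM in control libraries, also without overlap, though an opposite-strand transcript covers 14.6% of its exon bases. Dot1l, the lysine 79 methyltransferase, stood at 5.96, 5.58 and 5.30 FPKM in libraries labelled knockout and 6.26, 6.06 and 6.50 FPKM in libraries labelled control. All its knockout-labelled values were below the control values in FPKM, while under TPM its change was 0.04 (FPKM log2 change -0.14 ± 0.10 SE, 95% interval -0.37 to 0.09, limma adjusted p = 0.545). Against the median of all tested genes that change was -0.15 in FPKM and in TPM. Setdb1 averaged 13.5 ± 1.33 FPKM in knockout-labelled and 12.2 ± 1.93 FPKM in control libraries.

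Demethylases had 5 of 6 changes below 0 in FPKM. Kdm1a, Kdm2b and Kdm5b turned to positive values under TPM, where the median of all tested genes was 0.19. The group median was -0.07 relative to all tested genes in FPKM and -0.06 relative to them in TPM. Kdm1a (LSD1), which removes methyl groups from lysine 4, was the highest at 29.9, 27.2 and 28.5 FPKM in knockout-labelled libraries 1 to 3, against 28.7, 31.4 and 25.98 FPKM in control libraries 1 to 3. Its groups overlapped, and its change was the closest to 0 of all 56 (log2 change -0.0026 ± 0.09 SE, 95% interval -0.20 to 0.19, limma adjusted p = 0.993). Kdm5a, a demethylase of trimethylated lysine 4, stood at 7.63, 8.93 and 9.40 FPKM in the knockout-labelled libraries, against 11.4, 11.3 and 10.3 FPKM in the controls. All knockout-labelled libraries lay below all control libraries (log2 change -0.32 ± 0.10 SE, 95% interval -0.55 to -0.09, limma adjusted p = 0.169), and the change stayed negative, at -0.14, under TPM. Its share in the summed FPKM of Kdm5a, Kdm5b and Kdm5c was 23.7%, 27.98% and 26.5% in knockout-labelled libraries against 30.6%, 30.6% and 34.1% in control libraries, without overlap. Kdm6b (JMJD3), which removes the PRC2 mark, was low throughout, at 2.36, 1.94 and 1.62 FPKM in libraries labelled knockout and 2.44, 2.67 and 3.30 FPKM in libraries labelled control. The groups did not overlap (log2 change -0.36 ± 0.16 SE, 95% interval -0.71 to -2.7e-05, limma adjusted p = 0.305), and under TPM the change was -0.27. Kdm2b, which recruits variant PRC1 to CpG islands, averaged 6.09 ± 0.502 FPKM in knockout-labelled and 6.25 ± 0.557 FPKM in control libraries, and Kdm4a averaged 7.98 ± 0.995 FPKM in knockout-labelled and 7.95 ± 1.36 FPKM in control libraries. Kdm5b, a paralogue of Kdm5a, averaged 8.85 ± 0.396 FPKM in knockout-labelled and 9.45 ± 1.13 FPKM in control libraries.

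Deacetylases held the 3 highest levels of all 56 genes (Hdac1, Hdac2 and Hdac3), and their changes lay between -0.13 and 0.12. Hdac1 stood at 83.96, 75.2 and 80.1 FPKM in knockout-labelled libraries 1 to 3, against 79.4, 81.2 and 81.9 FPKM in control libraries 1 to 3. These ranges overlapped, and the interval of the change ran from -0.17 to 0.13. A near-identical copy on chromosome 17 is 99.4% identical to Hdac1 over 1444 aligned bases and was itself at most 2.72 FPKM, so the split of reads between them is uncertain. Hdac2, its close paralogue in the NuRD, Sin3 and CoREST complexes, stood at 58.01, 68.3 and 66.02 FPKM in the knockout-labelled libraries, against 59.1, 57.1 and 59.6 FPKM in the controls. Knockout-labelled libraries 2 and 3 were higher than every control library and library 1 was not (log2 change 0.12 ± 0.08 SE, 95% interval -0.05 to 0.30, limma adjusted p = 0.463). The change was 0.19 without knockout-labelled library 1, 0.078 without knockout-labelled library 2 and 0.33 under TPM. Hdac3 averaged 55.2 ± 1.55 FPKM in knockout-labelled and 56.8 ± 1.69 FPKM in control libraries. Hdac7, a class IIa enzyme, stood at 13.9, 13.4 and 13.6 FPKM in libraries labelled knockout and 14.2, 15.2 and 15.5 FPKM in libraries labelled control. It was lower in every knockout-labelled library (log2 change -0.13 ± 0.08 SE, 95% interval -0.31 to 0.05, limma adjusted p = 0.468), and its sign turned under TPM (0.07). Beside the median of all tested genes, the change of Hdac7 was -0.14 in FPKM and -0.13 in TPM. Of the sirtuins, which use NAD+, Sirt7 averaged 19.5 ± 0.645 FPKM in knockout-labelled and 18.95 ± 0.750 FPKM in control libraries, the mitochondrial Sirt3 17.8 ± 0.958 FPKM in knockout-labelled and 19.5 ± 1.21 FPKM in control libraries, Sirt1 6.89 ± 0.832 FPKM in knockout-labelled and 7.20 ± 0.756 FPKM in control libraries and Sirt6 5.54 ± 0.693 FPKM in knockout-labelled and 5.72 ± 0.0971 FPKM in control libraries. Exons of neighbouring genes on the opposite strand cover 12.7% of the exon bases of Sirt3. In all, 18 of the 56 genes share some exon bases with a gene on the other strand, and 6 have a copy elsewhere at 95% identity or more over at least 300 bases.

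Among DNA methylation genes the highest levels were those of Dnmt1 and Uhrf1, which copy methylation onto new strands at replication. Dnmt1, the maintenance methyltransferase, stood at 50.2, 51.1 and 57.6 FPKM in knockout-labelled libraries 1 to 3, against 56.97, 45.6 and 49.9 FPKM in control libraries 1 to 3. Its cofactor Uhrf1 averaged 45.6 ± 4.52 FPKM in knockout-labelled and 46.97 ± 6.46 FPKM in control libraries, and both overlapped between the groups. The values for Dnmt1 were log2 change 0.06 ± 0.09 SE, 95% interval -0.15 to 0.27, limma adjusted p = 0.801, and those for Uhrf1 were log2 change -0.04 ± 0.11 SE, 95% interval -0.28 to 0.21, limma adjusted p = 0.915. The 16 S phase and mitosis genes summed to 913 to 1048 FPKM in knockout-labelled and 976 to 1068 FPKM in control libraries. Of their changes 8 were above 0 and 8 below, with 1 gene called lower and 0 higher. The gene called lower was Pcna, at 77.6, 88.2 and 87.8 FPKM in knockout-labelled and 120, 115 and 152 FPKM in control libraries. Its log2 change was -0.60 (limma adjusted p = 0.0309), and Pcna was called lower under TPM too, at -0.40. Dnmt3b, a de novo methyltransferase, averaged 26.7 ± 1.22 FPKM in knockout-labelled and 28.7 ± 2.36 FPKM in control libraries. The TET dioxygenases oxidise methylcytosine. Tet3 stood at 4.76, 4.93 and 4.53 FPKM in the knockout-labelled libraries, against 5.70, 5.42 and 5.62 FPKM in the controls. Its knockout-labelled values all lay below the control values in FPKM (log2 change -0.20 ± 0.10 SE, 95% interval -0.43 to 0.03, limma adjusted p = 0.381), while under TPM the change was -0.030. Tet1 stood at 2.16, 2.42 and 3.29 FPKM in libraries labelled knockout and 3.64, 3.27 and 2.73 FPKM in libraries labelled control, with overlapping groups (log2 change -0.22 ± 0.16 SE, 95% interval -0.58 to 0.14, limma adjusted p = 0.533). Its change was -0.090 under TPM, -0.13 without knockout-labelled library 1 and -0.35 without knockout-labelled library 3.

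Remodelling genes showed the lowest median of the 8 groups. Their median change was -0.18 in FPKM and -0.01 in TPM, which is -0.19 and -0.20 relative to all tested genes, and 4 of 5 lay lower without overlap in FPKM, beside 10.1% of all tested genes. Arid1a, the DNA-binding subunit of the BAF (SWI/SNF) complex, stood at 13.3, 12.8 and 13.4 FPKM in knockout-labelled libraries 1 to 3, against 16.9, 16.02 and 18.4 FPKM in control libraries 1 to 3. All knockout-labelled libraries lay below all control libraries, with a gap wider than the spread within either group (log2 change -0.35 ± 0.08 SE, 95% interval -0.54 to -0.16, limma adjusted p = 0.0829). Over 15 other settings and left-out libraries, TPM aside, its adjusted p did not go below 0.0538 (for genes with a mean of at least 5 FPKM), and under TPM its change was -0.17. Smarca4 (BRG1), the ATPase of the same complex, stood at 30.8, 34.4 and 34.1 FPKM in the knockout-labelled libraries, against 37.9, 37.5 and 39.6 FPKM in the controls. Here too the groups were apart in FPKM (log2 change -0.21 ± 0.07 SE, 95% interval -0.37 to -0.05, limma adjusted p = 0.192), while under TPM the change was -0.011. Chd4, the ATPase of the NuRD complex, stood at 32.3, 30.6 and 31.3 FPKM in libraries labelled knockout and 36.2, 33.4 and 37.6 FPKM in libraries labelled control. Its groups did not overlap in FPKM (log2 change -0.18 ± 0.07 SE, 95% interval -0.34 to -0.02, limma adjusted p = 0.261), but its sign turned under TPM (0.02). Relative to all tested genes the change of Chd4 was -0.19 in FPKM and -0.17 in TPM. Chd7, a CHD family remodeller, lay around the filter, at 1.01, 1.41 and 0.890 FPKM in knockout-labelled libraries 1 to 3, against 1.13, 0.790 and 1.21 FPKM in control libraries 1 to 3. Its groups overlapped (log2 change 0.04 ± 0.19 SE, 95% interval -0.38 to 0.46, limma adjusted p = 0.949). Hmga2, a DNA-bending protein of fetal and neonatal stem cells, stood at 2.94, 3.32 and 3.04 FPKM in the knockout-labelled libraries, against 3.70, 3.38 and 3.71 FPKM in the controls. It was low in all libraries and lower in each knockout-labelled one in FPKM (log2 change -0.17 ± 0.12 SE, 95% interval -0.44 to 0.11, limma adjusted p = 0.544), while under TPM the change was -0.010.

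**Figure D4:**
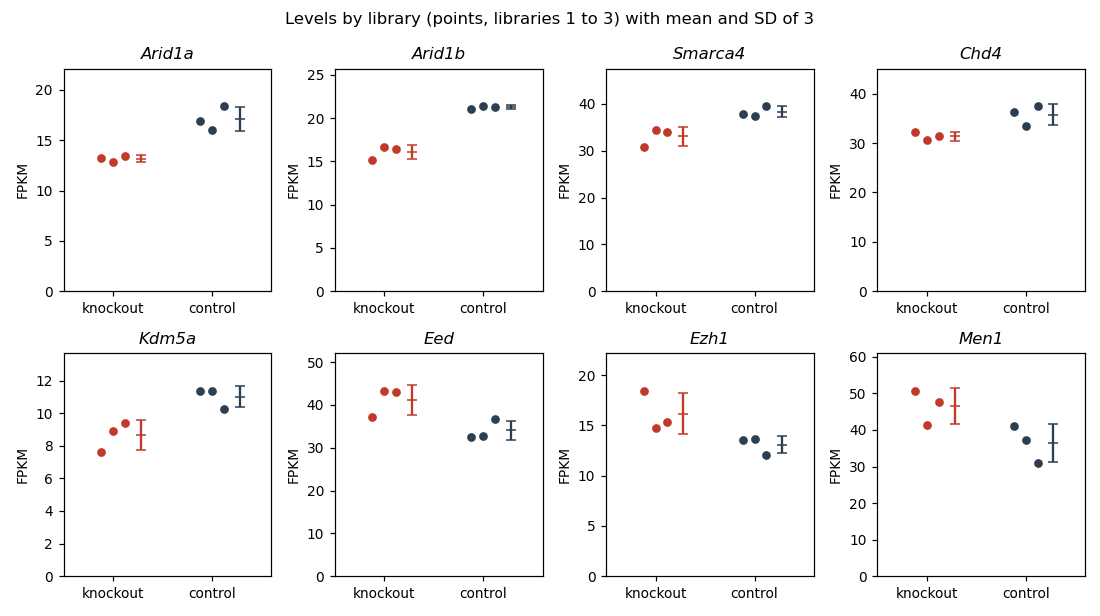
FPKM by library for 7 of the 56 genes and for Arid1b, with knockout-labelled libraries left and control libraries right, each beside its mean and SD of 3. Arid1a, Arid1b, Smarca4, Chd4 and Kdm5a are lower and Eed, Ezh1 and Men1 higher in all knockout-labelled libraries, with Arid1b alone past the test.

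Arid1b, the paralogue that can take the place of Arid1a in the BAF complex, is not among the 56 genes and was read from a list of 20 further remodelling genes. It stood at 15.1, 16.7 and 16.4 FPKM in libraries labelled knockout and 21.01, 21.4 and 21.3 FPKM in libraries labelled control, and it fell (log2 change -0.38 ± 0.08 SE, limma adjusted p = 0.0438). Its call was kept in 6 of 16 alternatives and lost whichever library was left out (adjusted p between 0.105 and 0.145) and under TPM (adjusted p = 0.169). In that list 1 gene was lower and 0 were higher, beside 0.996% and 0.566% of all tested genes. Changes below 0 numbered 15 of 20, beside 46.6% of all tested genes. Chd8 averaged 3.02 ± 0.144 FPKM in knockout-labelled and 4.10 ± 0.184 FPKM in control libraries and Chd3 4.73 ± 0.495 FPKM in knockout-labelled and 6.12 ± 0.512 FPKM in control libraries, neither past the test. The share of Arid1a in their summed FPKM overlapped between the groups, at 46.7%, 43.3% and 44.9% in knockout-labelled libraries and 44.5%, 42.8% and 46.3% in control libraries.

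The promoter windows of Arid1a and Eed are shown because these genes had the lowest p on the lower and on the higher side. Windows hold 250 bases before and 50 after a start site annotated by RefSeq (GRCm38.p6), and capitals mark CpG dinucleotides. The Arid1a window, 1 of 2 for that gene, lies at chr4:133756720-133757019 on the minus strand and holds 22 CpG dinucleotides. The Eed window lies at chr7:89980927-89981226 on the minus strand and holds 17.
Arid1a: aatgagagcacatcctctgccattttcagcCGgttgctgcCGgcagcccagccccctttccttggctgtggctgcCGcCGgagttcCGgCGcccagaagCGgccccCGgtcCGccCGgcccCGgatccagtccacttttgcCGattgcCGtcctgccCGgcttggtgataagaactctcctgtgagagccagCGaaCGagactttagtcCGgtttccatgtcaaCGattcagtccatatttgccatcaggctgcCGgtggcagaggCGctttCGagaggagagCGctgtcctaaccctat
Eed: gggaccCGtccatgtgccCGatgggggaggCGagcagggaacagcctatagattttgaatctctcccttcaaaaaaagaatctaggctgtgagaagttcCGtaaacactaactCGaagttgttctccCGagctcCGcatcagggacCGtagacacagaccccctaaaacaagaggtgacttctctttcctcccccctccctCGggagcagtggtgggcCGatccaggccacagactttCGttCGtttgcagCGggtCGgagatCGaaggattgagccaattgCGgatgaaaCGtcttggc
Both windows are rich in CpG, as were those of the 56 genes in general. Windows were found for 46 of the 56 genes, 68 in all, with a median of 23.5 CpG dinucleotides and 64.3% G and C, against 7 and 52.7% in the 32851 windows of all genes. Searched on both strands, the E-box CACGTG occurred in 8 of the 68 windows (11.8%, against 7.15% of all windows) and the E2F-like TTTNNCGC in 8 (11.8%, against 5.17%). Each of these motifs itself contains a CpG. CCAAT occurred in 27 windows (39.7%, against 37.4%), among them that of Eed, and the Arid1a window held none of the 3 motifs. Such matches describe the letters of the windows only.

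Further genes of the same complexes were read from 10 lists. Of 99 genes in them, 98 passed the filter, of which Arid1b was lower and 0 were higher. Of all tested genes 0.996% were lower and 0.566% higher. The median change of the 98 was -0.06, with 61 below 0, beside 46.6% of all tested genes below 0. Beside the MLL-type genes, Rbbp5 of the shared core averaged 31.7 ± 2.38 FPKM in knockout-labelled and 24.4 ± 1.26 FPKM in control libraries and Cxxc1, which targets the SET1 complexes to CpG islands, 45.3 ± 2.88 FPKM in knockout-labelled and 38.4 ± 1.49 FPKM in control libraries. Neither passed (limma adjusted p = 0.0688 and 0.157), and Setd1b averaged 2.57 ± 0.218 FPKM in knockout-labelled and 3.70 ± 0.372 FPKM in control libraries. Among the acetyltransferases Kat2a (GCN5) averaged 63.3 ± 1.38 FPKM in knockout-labelled and 51.4 ± 3.04 FPKM in control libraries (limma adjusted p = 0.0781). Prmt5, an arginine methyltransferase, averaged 45.3 ± 1.27 FPKM in knockout-labelled and 37.9 ± 1.69 FPKM in control libraries. Rbbp5, Cxxc1, Kat2a and Prmt5 were among the genes called higher under TPM (limma adjusted p between 0.00824 and 0.0134), as were 13.2% of all tested genes. The PRC2 accessory gene Mtf2 averaged 19.8 ± 2.19 FPKM in knockout-labelled and 23.9 ± 0.332 FPKM in control libraries, and Rbbp7, a histone chaperone shared by PRC2 and NuRD, 278 ± 12.9 FPKM in knockout-labelled and 262 ± 17.9 FPKM in control libraries. In the demethylase list Kdm1b, Kdm2a and Kdm3b had the smallest p, none passed, and 6 of 11 changes were above 0. Kdm1b averaged 5.43 ± 0.449 FPKM in knockout-labelled and 3.72 ± 1.01 FPKM in control libraries. Kdm2a went the other way, with 8.74 ± 0.375 FPKM in knockout-labelled and 10.9 ± 0.519 FPKM in control libraries. So did Kdm3b, with 5.62 ± 0.457 FPKM in knockout-labelled and 7.03 ± 0.310 FPKM in control libraries. Of the other deacetylases Sirt4 averaged 10.1 ± 1.08 FPKM in knockout-labelled and 8.44 ± 0.133 FPKM in control libraries, and of the HP1 genes Cbx3 averaged 10.5 ± 0.478 FPKM in knockout-labelled and 12.7 ± 0.695 FPKM in control libraries.

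Loci that Polycomb proteins are known to repress were read for comparison. Cdkn2a, the senescence locus held silent by Bmi1, was read at 0, 0.10 and 0 FPKM in knockout-labelled libraries and at 0, 0.15 and 0.08 FPKM in control libraries, and 5 of 9 such loci stayed below 1 FPKM in all libraries. Of the 4 that were tested, 0 passed and 0 reached p below 0.05 without adjustment in limma. Cdkn1c averaged 16.2 ± 1.03 FPKM in knockout-labelled and 15.95 ± 1.22 FPKM in control libraries and Hoxa10 21.8 ± 0.300 FPKM in knockout-labelled and 19.6 ± 2.21 FPKM in control libraries.

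The longer of the 56 genes had lower changes on average. Merged exon lengths ran from 1649 bases for Pcgf1 to 20291 for Kmt2c. Across the 56 genes, which share libraries and are not independent replicates, log2 length and change correlated at a Pearson r of -0.31, against 0.06 across all 12555 tested genes. The 28 genes below the median length of 6716.5 bases had a median change of 0.01 with 15 above 0, and the 28 longer genes a median of -0.08 with 9 above 0. For all tested genes split at the same length the medians were 0.02 and -0.02. Without knockout-labelled library 1 the correlation over the 56 genes was -0.20. What ties length to change was not tested.

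**Figure D5:**
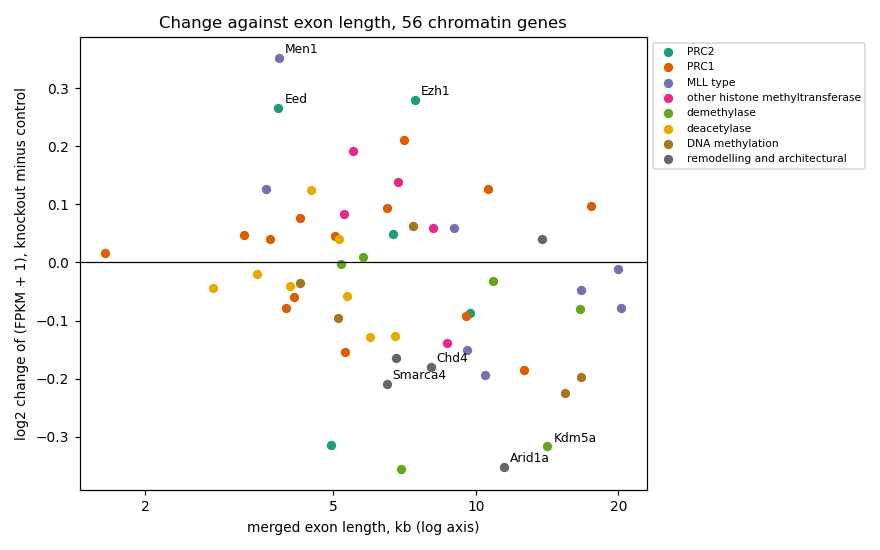
Change of log2(FPKM + 1), knockout-labelled minus control, against merged exon length in kb on a log axis, with 1 point per gene coloured by role. Points on the right lie lower on average (Pearson r -0.31 over 56 genes), while Men1 marks the top and Kdm6b the bottom.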

How the data were processed

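RNA was extracted from stem cells sorted into TRIzol-LS, and 2 ng entered the unstranded SMART-Seq v4 kit, per the labels' protocols. FastQC 0.11.5, STAR and edgeR are named in the submitters' processing notes, with GRCm38 and mm10. How each was used, and the annotation behind the values, is not stated there. The authors deposited FPKM for 52183 genes and 6 libraries; the name of the table gives the unit. Depth came from genes of at most 400 bp of exon, where at least 99.4% of values were whole reads within 0.1 read. All identifiers matched GENCODE M21, which gave positions and lengths.

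Log2(FPKM + 1) was tested with limma 3.58.1 (R 4.3.3; eBayes with trend, two-sided, group as the single term), for genes of at least 1 FPKM in at least 3 libraries, with Benjamini-Hochberg adjustment over all 12555 genes. This scale understates changes of low genes. The 95% intervals use limma's moderated SE. The script was tested on simulated data. Near copies were found with BLAST 2.17.0. Values per library are given for the 2 genes of each role with the smallest p, the most abundant gene of each role, genes at the filter, and some chosen after their values were seen (Bmi1, Suz12, Ash2l, Phc1, Chd4 and Hmga2); from each further list up to 3 genes are named by p, besides Cdkn2a and the T and NK cell genes, chosen afterwards. Gene families for shares were chosen after values were seen. The members and lists were chosen with earlier results of these data known. Alternatives covered the pseudocount, filters, scalings, variance prior, library weights, the replicate number and each library left out.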

Additional observations from a re-analysis of the deposited data

How the results depend on the processing

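No member was called in any of 15 settings other than TPM (lowest adjusted p by limma 0.0538, for Arid1a at a mean of at least 5 FPKM, which tested 48 of the 56 genes). Under TPM 6 were called higher. Over all genes, calls on the higher side numbered 71 as reported, and 8 with no filter, 112 at a mean of at least 5 FPKM, 2016 under TPM, 24 without the variance trend, 112 with array weights and 127 for protein-coding genes alone, a setting chosen after seeing the data. Calls on the lower side numbered 125 as reported, 16 with no filter and 65 without the trend. With each library left out, calls lay between 16 and 38 on the higher side and between 43 and 77 on the lower side, with 0 members in each case. The causes were not tested. Of all calls 36.2% were higher, against 94.0% under TPM.

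Same-numbered libraries deviated from their group means with correlations of -0.11, 0.04 and -0.08, so the numbers were not taken as pairs. With the replicate number as a replicate block, 27 genes were higher and 54 lower, 0 members among them, and Arid1b had an adjusted p of 0.122 by limma.

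Signs turned under TPM, where the median change of all tested genes was 0.19, for 22 members, to log2 changes of 0.10 for Jarid2, 0.12 for Bmi1, 0.090 for Pcgf3, 0.14 for Rnf2, 0.035 for Phc1, 0.14 for Kmt2a, 0.013 for Kmt2b, 0.086 for Kmt2c, 0.18 for Kmt2d, 0.040 for Dot1l, 0.20 for Kdm1a, 0.16 for Kdm2b, 0.11 for Kdm5b, 0.18 for Hdac1, 0.16 for Hdac3, 0.066 for Hdac7, 0.13 for Sirt1, 0.066 for Sirt3, 0.14 for Sirt6, 0.10 for Dnmt3b, 0.17 for Uhrf1 and 0.019 for Chd4. Quantile normalization gave -0.0027 for Pcgf1 and -0.0068 for Kdm4a. Array weights gave -0.0075 for Pcgf1, 0.0031 for Kmt2a and 0.042 for Uhrf1. The other scalings, filters and pseudocount turned no member's sign.

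Leaving out each library turned the sign in 21 members, with these lowest and highest log2 changes: Ezh2 -0.0096 to 0.13, Pcgf1 -0.019 to 0.044, Pcgf3 -0.24 to 0.031, Pcgf6 -0.026 to 0.10, Rnf2 -0.13 to 0.0044, Cbx8 -0.042 to 0.12, Phc3 -0.016 to 0.17, Kmt2a -0.11 to 0.019, Kmt2c -0.18 to 0.081, Kmt2d -0.055 to 0.022, Kmt2e -0.36 to 0.056, Ehmt1 -0.0096 to 0.12, Kdm1a -0.069 to 0.062, Kdm2b -0.098 to 0.028, Kdm4a -0.081 to 0.13, Hdac1 -0.057 to 0.021, Sirt1 -0.13 to 0.029, Sirt6 -0.13 to 0.0089, Dnmt1 -0.011 to 0.15, Uhrf1 -0.15 to 0.029, Chd7 -0.062 to 0.11. The log2 difference of the Ezh2 to Ezh1 ratio lay between -0.34 and -0.06. Outside TPM 35 members kept their sign, 24 in every setting. Depth limits Chd7 most, with 252 reads in its lowest library.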
